A study of Mus musculus with 12 samples.

Results

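The insulin-like growth factor (IGF) axis was followed through 10 genes taken from the deposited count table by exact symbol: the ligands Igf1 and Igf2, the receptors Igf1r and Igf2r, and the binding proteins Igfbp2, Igfbp3, Igfbp4, Igfbp5, Igfbp6 and Igfbp7. They are 10 of the 55401 genes in the table. The 12 RNA libraries, 4 in each of 3 groups, came from peritoneal lavages of C57BL/6J mice, collected in 8 mL of saline. ID8-FSHR mice had received an intraperitoneal injection of the mouse ovarian cancer line labelled ID8 (defb29/Vegf-a) FSHR, which is ID8 with added beta-defensin Defb29, vascular growth factor Vegfa and follicle-stimulating hormone receptor. ID8 mice had received the line labelled ID8 (defb29/Vegf-a), which carries the first 2 of these genes, and uninjected mice had received nothing. Lavage was done 7 days after injection. The dose is 4000000 cells in the series text and 5000000 in the sample protocol. The sources used here do not give the age or sex of the mice or say whether a line is 1 clone. Since the series has no mice that received an injection free of tumour cells, tumour and injection cannot be told apart.

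IGF1 and IGF2 are secreted peptides related to insulin, and both act through the receptor tyrosine kinase IGF1R, which drives growth and survival through insulin receptor substrates and the PI3K and AKT pathway. IGF2R is the large mannose 6-phosphate receptor, which sends lysosomal enzymes to lysosomes and takes up IGF2 for breakdown without signalling as a growth factor receptor. The IGF binding proteins hold IGFs in tissue fluid, where they can block them, carry them or release them once cut by proteases, and IGFBP7 binds IGFs only weakly. Macrophages are a known source of IGF1, and mesothelial and mesenchymal cells are known sources of several binding proteins.

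Total counts per library ran from 47419608 to 64333677, and levels are given as CPM, counts scaled to a fixed effective library size. A lavage is a mixture of resident and recruited cells with any floating tumour cells, although the labels of the injected groups name a cell line. Wt1, known from mesothelium and from the surface of the ovary, was measured at 371 ± 125 CPM in ID8-FSHR and 550.1 ± 43.0 CPM in ID8, against 0.404 ± 0.225 CPM in uninjected mice (SD, n = 4 each). Adgre1, which encodes the macrophage protein F4/80, stood at 1165 ± 339, 954 ± 121 and 1575 ± 98.8 CPM in the same groups. The Fshr row held 9 counts over ID8-FSHR, 2 over ID8 and 0 over uninjected libraries, so it does not check the label. ID8-FSHR replicate 2 stood apart: 10 mesothelial and ovarian surface markers summed to 985 CPM in this library, against 2251 to 2529 CPM in the other ID8-FSHR libraries. Its 10 markers of monocytes and small macrophages summed to 4913 CPM, against 1316 to 1868 CPM in the others. Most of that sum was 1 marker, Arg1, whose highest level in ID8-FSHR was 2899 CPM, in this library. The fold changes of the members in ID8-FSHR are given below with and without that library.

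Of the 10 genes, 9 passed the filter on low counts, and Igfbp3 did not. Igf2 passed through the uninjected libraries only, and Igfbp2 through the tumour libraries only, so each had to differ between them. In ID8-FSHR against uninjected lavage, 6 of the 9 genes were higher and 2 lower at an adjusted p under 0.05 (edgeR quasi-likelihood test, Benjamini-Hochberg over all genes tested), where 64.5% of all 16915 tested genes were called, 33.9% higher and 30.6% lower. The same 8 genes had groups that did not overlap, as had 57.0% of all tested genes, 29.6% higher and 27.4% lower. In ID8 against uninjected lavage the members' counts were again 6 and 2 by both rules, where 64.1% of all tested genes were called (32.7% higher, 31.4% lower) and 62.5% did not overlap (31.8% higher, 30.7% lower). With most of the table called, these counts single out nothing about the members. In ID8-FSHR against ID8, 1 gene was higher and 4 were lower, where 11.6% of all tested genes were called (6.04% higher, 5.56% lower). The groups did not overlap for 0 members higher and 4 lower, against 18.5% of all tested genes (7.74% higher, 10.8% lower). Leaving out 1 library brought the 5 calls to 3 (ID8 replicate 1 or ID8-FSHR replicate 4) or 2 (ID8 replicate 3 or 4). Without ID8-FSHR replicate 2 the counts were 6 and 2 against uninjected mice, and 0 higher and 5 lower against ID8. The first 2 comparisons share the uninjected libraries. The median log2 fold change over the 9 genes was 0.98 in ID8-FSHR against uninjected, 1.51 in ID8 against uninjected and -0.60 in ID8-FSHR against ID8. Over all tested genes the medians were 0.00083, -0.03 and -0.0062.

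**Figure D1:**
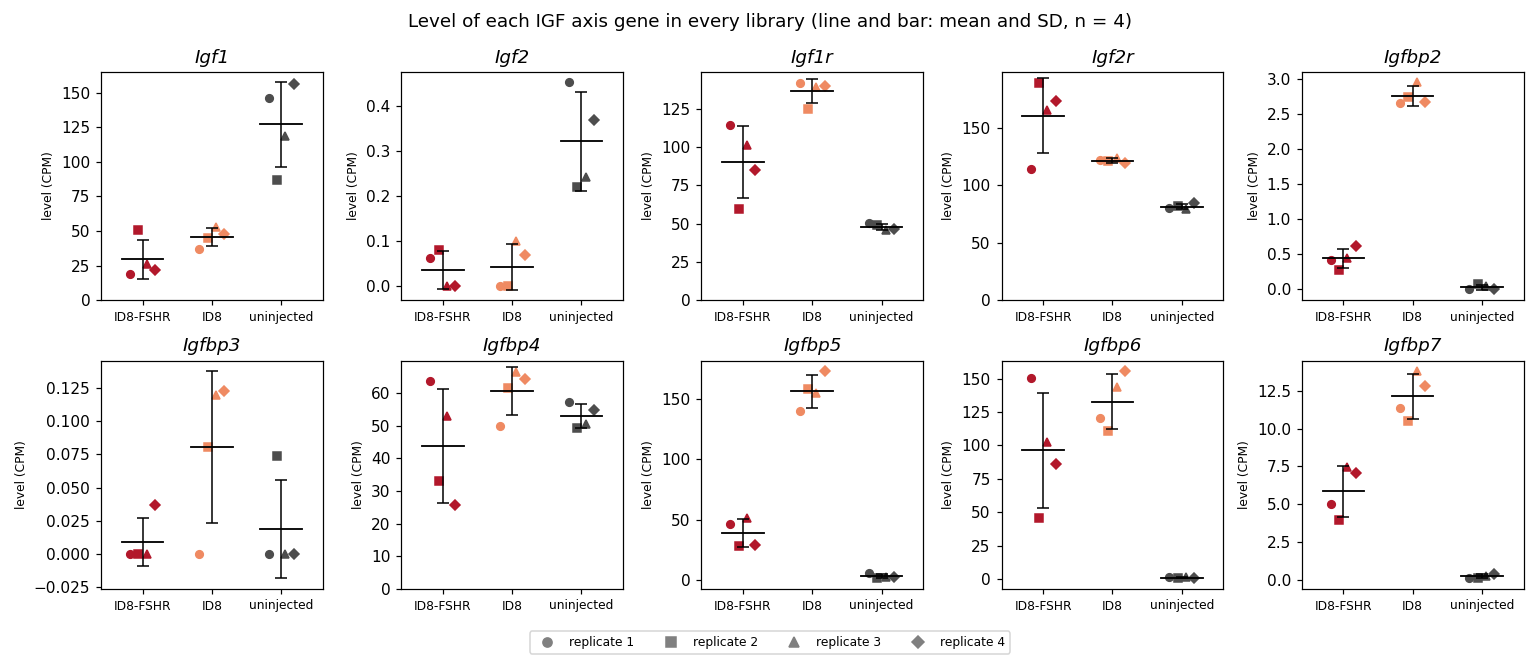
Level of each of the 10 genes in every library (vertical axis, CPM, a separate linear scale per gene) in ID8-FSHR, ID8 and uninjected mice, with symbols for replicates 1 to 4, lines at the mean and bars of 1 SD (n = 4). Igf1 and Igf2 sit highest in uninjected mice, Igfbp2, Igfbp5 and Igfbp7 sit highest in ID8 with ID8-FSHR between, and Igf2r sits highest in 3 of the 4 ID8-FSHR libraries.

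Igf1 (ENSMUSG00000020053.18; chromosome 10, 87858265 to 87937042, plus strand of GRCm38) encodes the main ligand of IGF1R and fell in both tumour groups. It stood at 18.8, 50.5, 26.2 and 21.8 CPM in ID8-FSHR replicates 1 to 4, at 37.1, 44.6, 53.1 and 47.5 CPM in ID8, and at 146, 87.1, 119 and 156 CPM in uninjected mice. Every tumour library was below every uninjected library, and ID8-FSHR replicate 2 lay with the ID8 libraries rather than with its own group. The log2 fold change was -2.11 (SE 0.28, edgeR adjusted p = 2.51e-05) in ID8-FSHR against uninjected, -2.41 without replicate 2 (edgeR adjusted p = 1.48e-06). It was -1.48 (SE 0.28, edgeR adjusted p = 0.000427) in ID8 against uninjected. Between the tumour groups it was -0.64 (SE 0.27, edgeR adjusted p = 0.148), which did not pass the threshold. Without ID8-FSHR replicate 2 that difference was -1.02 and passed (edgeR adjusted p = 0.00942). In bulk RNA, fewer cells of a type and less RNA per cell cannot be told apart.

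Against uninjected mice, markers of resident large peritoneal macrophages mostly moved the same way as Igf1. Of 10 such markers 7 were lower and 1 higher in ID8-FSHR against uninjected, and 8 were lower and 1 higher in ID8 against uninjected, with Gata6 the higher one in both. Of all tested genes 30.6% were lower and 33.9% higher in ID8-FSHR, and 31.4% lower and 32.7% higher in ID8. None of the 10 markers was at 0 counts in any group. Their summed level ran from 3935 to 6021 CPM in ID8-FSHR and from 3898 to 4885 CPM in ID8, against 6773 to 8087 CPM in uninjected mice. Its mean was 4635 ± 943 CPM in ID8-FSHR and 4225 ± 448 CPM in ID8. Between these groups 2 of the 10 markers were lower in ID8-FSHR and 0 higher (all tested genes: 5.56% lower, 6.04% higher). Per 1000 CPM of these markers, Igf1 stood at 4.50 to 8.39 CPM in ID8-FSHR, 9.14 to 13.0 CPM in ID8 and 12.9 to 22.8 CPM in uninjected libraries. The ID8-FSHR range lay below each of the others, which overlap slightly. The exact permutation test of this ratio, 2-sided over 4 against 4 libraries, gave p = 0.0286 for ID8-FSHR against uninjected and for ID8-FSHR against ID8. That is the smallest p these group sizes allow, and it is 0.0514 adjusted over the 18 ratio tests made. For ID8 against uninjected the exact permutation p was 0.0571 (0.0857 adjusted). The ratios were chosen after the levels had been seen. Of the 10 markers of monocytes and small macrophages, 4 were higher and 3 lower in ID8-FSHR against uninjected. In ID8 against uninjected 1 was higher and 3 lower, beside the same shares of all tested genes.

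Igf2 (ENSMUSG00000048583.16; chromosome 7, 142650766 to 142666816, minus strand), the fetal growth ligand, was close to the detection limit everywhere. It had 4, 4, 0 and 0 counts in ID8-FSHR, 0, 0, 5 and 4 counts in ID8, and 23, 12, 12 and 17 counts in uninjected libraries. All 8 tumour libraries were below all 4 uninjected ones. Where a library had 0 counts, 3 counts were taken as the upper limit, which is 0.0444 to 0.0653 CPM across the libraries. By summed counts, Igf2 was 8.72-fold lower in ID8-FSHR than in uninjected mice (95% exact binomial interval 4.17 to 21.1, counting error only) and 7.97-fold lower in ID8 (3.95 to 18.2). The fitted log2 fold change was -3.07 in ID8-FSHR against uninjected, -3.58 without replicate 2, and -2.90 in ID8 against uninjected. Because Igf2 entered the test only through the uninjected libraries, where it was high, its calls are not read as support. Of the Igf2 exon length, 62.8% is shared on the same strand with Gm49394, which had 0 counts in every library. The sources used here do not say how reads in that stretch were assigned, so the level of Igf2 is uncertain. No difference between the tumour groups was detectable at this depth, with 8 counts in ID8-FSHR and 9 in ID8 (log2 fold change -0.17, and -0.77 without ID8-FSHR replicate 2).

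Igf1r (ENSMUSG00000005533.10; chromosome 7, 67952827 to 68233668, plus strand), the signalling receptor, rose in both tumour groups, and more in ID8. It stood at 115, 59.7, 101 and 85.2 CPM in ID8-FSHR, at 142, 125, 139 and 140.1 CPM in ID8, and at 50.3, 48.8, 45.6 and 46.6 CPM in uninjected mice. The 3 groups did not overlap, with ID8 highest and uninjected lowest, and ID8-FSHR replicate 2 was the tumour library nearest the uninjected level. The log2 fold change was 0.92 (SE 0.15, edgeR adjusted p = 0.000144) in ID8-FSHR against uninjected, 1.17 without replicate 2. It was 1.51 (SE 0.15, edgeR adjusted p = 1.88e-06) in ID8 against uninjected. ID8-FSHR was lower than ID8 by -0.60 (SE 0.15, edgeR adjusted p = 0.0225), and by -0.43 without ID8-FSHR replicate 2 (edgeR adjusted p = 0.0073). That call was lost without ID8 replicate 1, 3 or 4 (edgeR adjusted p = 0.0596, 0.0623 and 0.0655) and without ID8-FSHR replicate 4 (0.0641). Per 1000 CPM of the 10 mesothelial and ovarian surface markers, Igf1r was not lower in ID8-FSHR. It ran from 37.9 to 60.6 CPM there and from 38.9 to 43.6 CPM in ID8 (log2 difference 0.16, exact permutation p = 0.371). In uninjected mice, where these markers were nearly absent, it ran from 2228 to 2502 CPM, so the marker sum does not scale all of the Igf1r. Of the 10 markers 5 were themselves lower in ID8-FSHR than in ID8. The part of the marker cells in the Igf1r difference was not tested.

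Igf2r (ENSMUSG00000023830.14; chromosome 17, 12682406 to 12769664, minus strand) also rose in both tumour groups, in the opposite order. It stood at 114, 189, 166 and 174 CPM in ID8-FSHR, at 122, 121, 124 and 119.6 CPM in ID8, and at 80.2, 81.7, 79.4 and 85.0 CPM in uninjected mice. The ID8 and uninjected libraries were each within a few CPM of one another, whereas ID8-FSHR replicate 1 fell below all ID8 libraries and the other 3 above them. The log2 fold change was 0.98 (SE 0.12, edgeR adjusted p = 9.74e-06) in ID8-FSHR against uninjected and 0.99 without replicate 2. In ID8 against uninjected it was 0.58 (SE 0.12, edgeR adjusted p = 0.000803). ID8-FSHR exceeded ID8 by 0.40 (SE 0.12, edgeR adjusted p = 0.0429), a call that was lost in 11 of the 12 fits that left out 1 library. The exception was ID8-FSHR replicate 1, without which the difference was 0.54 (edgeR adjusted p = 0.000175). Without replicate 2 it was 0.33 (edgeR adjusted p = 0.0811).

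The receptors stood in different proportion within a library. The ratio of Igf1r to Igf2r CPM was 1.00, 0.315, 0.609 and 0.491 in ID8-FSHR and 1.16, 1.03, 1.12 and 1.17 in ID8. It ran from 0.548 to 0.627 in uninjected mice. The ID8 ratios lay above those of both other groups, and ID8-FSHR spread around the uninjected values. The exact permutation p was 0.0286 for ID8-FSHR against ID8 and for ID8 against uninjected (0.0514 adjusted over 18 tests), and 0.743 for ID8-FSHR against uninjected.

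The Igf2r promoter is printed because Igf2r was the only member with a higher level in ID8-FSHR than in ID8. It is the 250 bases before the RefSeq start of the gene, GRCm38.p6, minus strand, chr17:12769707-12769956, read 5′ to 3′, with the E-box CACGTG in capitals.
Igf2r: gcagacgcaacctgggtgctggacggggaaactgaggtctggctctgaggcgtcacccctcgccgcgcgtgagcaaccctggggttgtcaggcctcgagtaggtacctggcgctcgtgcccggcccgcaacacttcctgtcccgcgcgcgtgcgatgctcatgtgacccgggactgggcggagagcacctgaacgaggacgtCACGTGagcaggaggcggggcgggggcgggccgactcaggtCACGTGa
Both E-boxes are preceded by GT, giving GTCACGTG, the core of the element through which the factor TFEB is known to act on lysosomal genes. At least 1 match of GTCACGTG, on either strand, was present in 1.85% of the 32851 RefSeq promoters of this length, and 2 or more in 0.350%. The match describes the sequence and shows no binding.

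Of the 6 binding protein genes, Igfbp5, Igfbp6 and Igfbp7 rose in both tumour groups, Igfbp4 was not called and Igfbp3 was not tested. Igfbp2 was higher in both too, but it entered the test only through the tumour libraries. Igfbp5 (ENSMUSG00000026185.8; chromosome 1, 72857932 to 72874884, minus strand) encodes a protein that binds IGFs and extracellular matrix. It stood at 46.0, 28.0, 51.2 and 29.4 CPM in ID8-FSHR, at 139.5, 158, 155 and 173 CPM in ID8, and at 5.49, 1.27, 2.77 and 2.66 CPM in uninjected mice. The groups were far apart, and the lowest ID8 library was above the highest ID8-FSHR library by more than the spread within either group. The log2 fold change was 3.67 (SE 0.35, edgeR adjusted p = 1.06e-06) in ID8-FSHR against uninjected and 3.89 without replicate 2. In ID8 against uninjected it was 5.68 (SE 0.37, edgeR adjusted p = 4.10e-08). ID8-FSHR was lower than ID8 by -2.01 (SE 0.31, edgeR adjusted p = 0.00126), which is 4.04-fold, and by -1.87 without replicate 2 (edgeR adjusted p = 0.0105).

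Igfbp2 (ENSMUSG00000039323.18; chromosome 1, 72824503 to 72852474, plus strand), whose product binds IGFs and, through an RGD sequence, integrins, followed the same order at a much lower level. It stood at 0.411, 0.279, 0.441 and 0.621 CPM in ID8-FSHR, at 2.65, 2.74, 2.95 and 2.66 CPM in ID8, and at 0, 0.0738, 0.0404 and 0 CPM in uninjected mice. Behind these levels were 96 counts in ID8-FSHR, 615 in ID8 and 6 in uninjected libraries. ID8-FSHR was lower than ID8 by -2.64 (SE 0.40, edgeR adjusted p = 0.00118), which is 6.24-fold, and by -2.46 without replicate 2. Against the 6 uninjected counts, the ratio was 14.7 for ID8-FSHR (95% exact binomial interval 6.51 to 41.0) and 91.5 for ID8 (41.8 to 250.2). The fitted log2 fold change was 3.78 in ID8-FSHR against uninjected, 4.04 without replicate 2, and 6.42 in ID8 against uninjected. Igfbp2 entered the test only through the tumour libraries, so its calls against uninjected mice are not read as support. The calls of Igfbp2 and Igfbp5 between the tumour groups held in all 12 fits that left out 1 library, with adjusted p of at most 0.0059 for Igfbp2 and 0.0105 for Igfbp5. These genes are neighbours that point toward each other, with 5457 bases between their ends.

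The promoters of Igfbp2 and Igfbp5 are printed because these neighbouring genes had the largest differences between the tumour groups, and that of Igfbp7 because it moved the same way. Each is the 250 bases before the RefSeq start on GRCm38.p6, 5′ to 3′ on the strand of the gene: chr1:72824230-72824479, plus, for Igfbp2 (the first of 2 listed starts), chr1:72874866-72875115, minus, for Igfbp5, and chr5:77408046-77408295, minus, for Igfbp7. Capitals mark the GC box GGGCGG on either strand in Igfbp2 and Igfbp7, and TATTTAAA, a sequence like a TATA box, in Igfbp5.
Igfbp2: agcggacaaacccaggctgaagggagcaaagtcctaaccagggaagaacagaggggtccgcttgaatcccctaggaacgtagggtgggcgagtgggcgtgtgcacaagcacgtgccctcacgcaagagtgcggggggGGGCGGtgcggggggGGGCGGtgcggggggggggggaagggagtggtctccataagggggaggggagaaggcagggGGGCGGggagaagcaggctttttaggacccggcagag
Igfbp5: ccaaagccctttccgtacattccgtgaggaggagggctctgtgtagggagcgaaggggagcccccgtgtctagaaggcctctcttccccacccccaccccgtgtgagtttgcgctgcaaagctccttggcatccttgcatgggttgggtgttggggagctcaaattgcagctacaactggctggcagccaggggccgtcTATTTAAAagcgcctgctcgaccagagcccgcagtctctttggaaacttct
Igfbp7: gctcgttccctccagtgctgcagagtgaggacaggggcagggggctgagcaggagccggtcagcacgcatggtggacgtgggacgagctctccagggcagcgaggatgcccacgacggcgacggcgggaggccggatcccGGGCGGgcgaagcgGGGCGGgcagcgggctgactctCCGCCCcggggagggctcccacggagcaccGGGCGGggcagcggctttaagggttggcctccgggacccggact
Igfbp2 held 3 GC boxes and Igfbp7 held 4, while Igfbp5 held none in this window and carried TATTTAAA 51 to 44 bases before its start. A GC box was present in 32.7% of the 32851 promoters, and TATTTAAA on either strand in 1.71%. Neither motif was in all 3 windows, which says nothing of the factors that bind there. Left unmarked were 3 GC boxes in the Igf2r window and 1 E-box, CACGTG, in the Igfbp2 window. GC boxes and E-boxes thus each occurred in genes of both directions.

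Igfbp7 (ENSMUSG00000036256.13; chromosome 5, 77349240 to 77408041, minus strand), a matrix protein with weak IGF binding, stood at 5.00, 3.94, 7.47 and 7.05 CPM in ID8-FSHR, at 11.4, 10.5, 13.8 and 12.8 CPM in ID8, and at 0.118, 0.148, 0.283 and 0.414 CPM in uninjected mice. The groups did not overlap. The log2 fold change was 4.62 (SE 0.33, edgeR adjusted p = 1.01e-07) in ID8-FSHR against uninjected, 4.87 without replicate 2, and 5.66 (SE 0.34, edgeR adjusted p = 1.97e-08) in ID8 against uninjected. ID8-FSHR was lower than ID8 by -1.05 (SE 0.26, edgeR adjusted p = 0.0221), and by -0.88 without replicate 2 (edgeR adjusted p = 0.0361). That call was lost without ID8 replicate 3 or 4 (edgeR adjusted p = 0.0732 and 0.0687). Of its exon length, 7.03% overlaps Polr2b on the other strand, and the sources used here do not give the strand setting of the counting. Among 10 markers of endothelium, a known source of Igfbp7, 6 were tested, of which 2 rose and 2 fell in ID8-FSHR and 2 rose and 3 fell in ID8. Of all tested genes 33.9% rose and 30.6% fell in ID8-FSHR, and 32.7% rose and 31.4% fell in ID8. The sum of the 10 markers ran from 51.4 to 102 CPM in ID8-FSHR and from 72.5 to 96.4 CPM in ID8, against 88.8 to 117 CPM in uninjected mice, where Pecam1 made up most of it. Without Pecam1 it ran from 24.4 to 60.9 CPM in ID8-FSHR and from 48.8 to 71.4 CPM in ID8, against 3.63 to 4.61 CPM in uninjected mice, mostly through the VEGF receptor gene Flt1. Cldn5 was at 0 counts in every group, Emcn in ID8-FSHR and uninjected mice, Tie1 in ID8 and Tek in uninjected mice. The part of endothelium in the rise of Igfbp7 was not tested.

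Igfbp6 (ENSMUSG00000023046.6; chromosome 15, 102144362 to 102149511, plus strand), whose product prefers IGF2, stood at 150.0, 45.8, 103 and 86.3 CPM in ID8-FSHR, at 121, 111, 144 and 156 CPM in ID8, and at 1.62, 0.424, 1.13 and 0.784 CPM in uninjected mice. All tumour libraries were far above all uninjected ones, and the tumour groups overlapped. The log2 fold change was 6.60 (SE 0.43, edgeR adjusted p = 3.62e-08) in ID8-FSHR against uninjected, 6.94 without replicate 2, and 7.07 (SE 0.43, edgeR adjusted p = 2.20e-08) in ID8 against uninjected. Between the tumour groups it was -0.46 (SE 0.31, edgeR adjusted p = 0.354), which did not pass, and -0.22 without replicate 2. The SE leaves room for a difference of either sign.

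Igfbp4 (ENSMUSG00000017493.12; chromosome 11, 99041244 to 99054392, plus strand), an inhibitory binding protein that the protease PAPP-A cuts, stood at 63.7, 33.0, 52.9 and 25.8 CPM in ID8-FSHR, at 49.9, 61.6, 66.4 and 64.2 CPM in ID8, and at 57.3, 49.4, 50.4 and 54.7 CPM in uninjected mice. The 3 groups overlapped, and ID8-FSHR was the most spread. No comparison passed: the log2 fold change was -0.27 (SE 0.22, edgeR adjusted p = 0.298) in ID8-FSHR against uninjected, 0.19 (SE 0.22, edgeR adjusted p = 0.464) in ID8 against uninjected, and -0.46 (SE 0.22, edgeR adjusted p = 0.189) in ID8-FSHR against ID8. Without ID8-FSHR replicate 2 the first was -0.06 and the last -0.34. Without ID8-FSHR replicate 1 both passed, at -0.50 (edgeR adjusted p = 0.0386) and -0.70 (edgeR adjusted p = 0.0283). With only the libraries of ID8 and uninjected mice in the fit, ID8 was higher by 0.27 (edgeR adjusted p = 0.0229). Igfbp3 (ENSMUSG00000020427.11; chromosome 11, 7206086 to 7213923, minus strand), the main carrier of IGFs in blood, had 2 counts over ID8-FSHR, 17 over ID8 and 4 over uninjected libraries and was not tested.

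**Figure D2:**
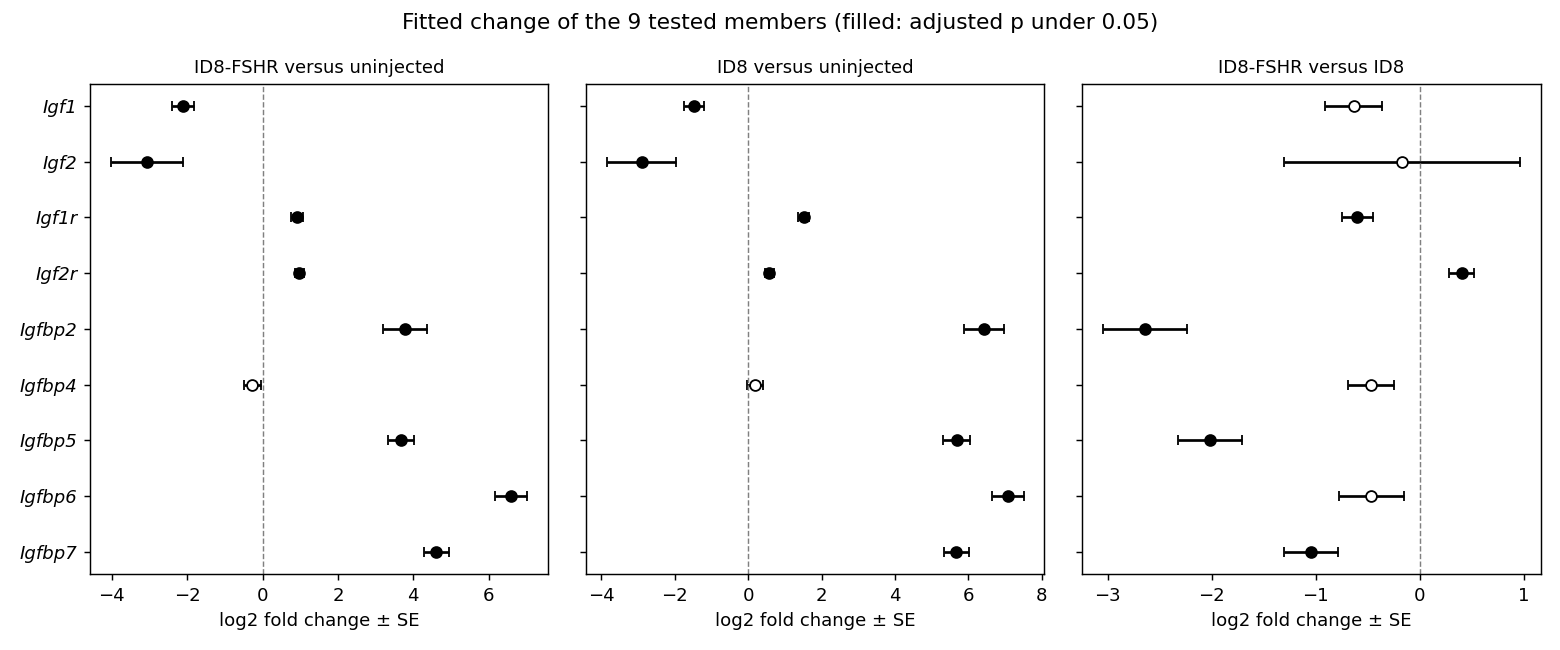
Fitted log2 fold change with its SE (horizontal axis) of the 9 genes tested in ID8-FSHR against uninjected, ID8 against uninjected and ID8-FSHR against ID8. Filled points have an adjusted p under 0.05: 8 of 9 in each comparison with uninjected mice, and 5 of 9 between the tumour groups, where Igfbp2 and Igfbp5 lie farthest to the left, at -2.64 and -2.01.

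To compare levels between genes, CPM were divided by merged exon length. On this scale the 6 binding protein genes summed to 108 ± 43.9 CPM per kb in ID8-FSHR and 171 ± 22.2 CPM per kb in ID8, against 13.6 ± 1.45 CPM per kb in uninjected mice (SD, n = 4 each). Igfbp4 made up 84.0% to 93.5% of the sum in uninjected mice, but only 6.18% to 13.2% in ID8-FSHR and 7.34% to 9.30% in ID8. Igfbp6 led in both tumour groups, with 72.6% to 83.6% in ID8-FSHR and 66.4% to 71.6% in ID8, against 3.19% to 9.43% in uninjected mice. Igfbp5 took 4.75% to 8.24% in ID8-FSHR and 14.1% to 17.5% in ID8, against 1.77% to 5.92% in uninjected mice. Igfbp7 took 2.56% to 6.17% in ID8-FSHR and 5.42% to 6.23% in ID8. The level of the ligand Igf1 was 2.96 ± 1.46 CPM per kb in ID8-FSHR, 4.60 ± 0.671 CPM per kb in ID8 and 12.8 ± 3.12 CPM per kb in uninjected mice. The summed level of the binding proteins per kb far exceeded that of Igf1 in both tumour groups and was close to it in uninjected lavage.

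**Figure D3:**
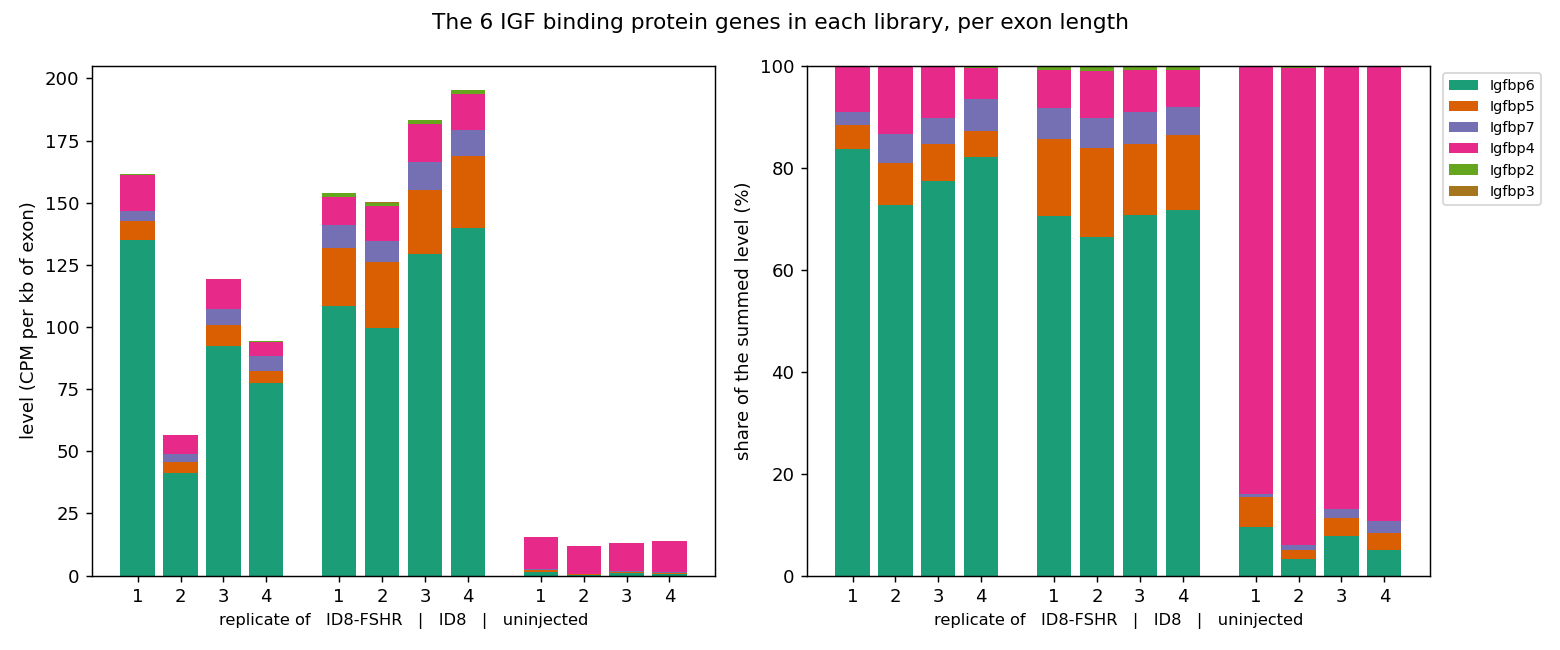
Level per kb of exon (left, CPM per kb, stacked) and share of the summed level (right, %) of the 6 binding protein genes in each library of ID8-FSHR, ID8 and uninjected mice, one bar per replicate. Igfbp4 fills 84.0% to 93.5% of the bars of uninjected mice, Igfbp6 fills at least 66.4% of every tumour bar, and the Igfbp5 share is wider in ID8 (14.1% to 17.5%) than in ID8-FSHR (4.75% to 8.24%).

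Most mesothelial and ovarian surface markers rose against uninjected mice, as did Igfbp5, Igfbp6 and Igfbp7, while Igfbp4 was not called. Igfbp2 was higher too, but it entered the test only through the tumour libraries, so those calls are not counted here. Of 10 mesothelial and ovarian surface markers 9 rose in ID8-FSHR and 10 in ID8 against uninjected, and 5 were lower in ID8-FSHR than in ID8. Of all tested genes 33.9% were higher and 30.6% lower in ID8-FSHR, and 32.7% higher and 31.4% lower in ID8. Between the tumour groups 5.56% were lower in ID8-FSHR. The sum of the 10 markers ran from 985 to 2529 CPM in ID8-FSHR and from 2864 to 3602 CPM in ID8, against 19.4 to 20.9 CPM in uninjected mice, and none was at 0 counts in any group. Beside the same shares of all tested genes, fibroblast markers, another known source, rose in 5 of 8 tested in ID8-FSHR and in 6 of 8 in ID8, where 2 were lower. Among those that rose in both, Pdgfra passed the filter on low counts only through the tumour libraries, with 2 counts over the uninjected ones. Its calls are not read as support. The 10 fibroblast markers summed to 296 to 457 CPM in ID8-FSHR and 483 to 606 CPM in ID8, against 67.3 to 92.7 CPM in uninjected mice. Most of that difference was Dcn, which encodes the matrix protein decorin, at 291 ± 102 CPM in ID8-FSHR and 456.9 ± 35.5 CPM in ID8, against 3.91 ± 1.74 CPM in uninjected mice. The other 9 markers summed to 67.7 to 147 CPM in ID8-FSHR and 65.96 to 129.8 CPM in ID8, against 63.0 to 91.4 CPM in uninjected mice, and these ranges overlap. Among them Lum had 20, 12 and 2 counts over ID8-FSHR, ID8 and uninjected libraries, and Dpt had 22, 17 and 0. The part of these cells in the rise of the binding proteins was not tested.

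Within the tumour libraries the groups lay apart in some ratios of the binding proteins to one another and to these markers. The ratio of Igfbp6 to Igfbp5 CPM was 3.26, 1.63, 2.01 and 2.94 in ID8-FSHR and 0.865, 0.702, 0.930 and 0.900 in ID8. Every ID8-FSHR library was above every ID8 library, a mean difference of 1.49 on the log2 scale. Per 1000 CPM of the mesothelial and ovarian surface markers, Igfbp5 ran from 13.0 to 28.5 CPM in ID8-FSHR and from 39.2 to 55.1 CPM in ID8, a log2 difference of -1.26. Igfbp2 ran from 0.163 to 0.283 CPM in ID8-FSHR and from 0.739 to 0.957 CPM in ID8, a log2 difference of -1.91. For these 3 ratios the groups did not overlap and the exact permutation p was 0.0286 (0.0514 adjusted over 18 tests, the smallest the design allows being 0.0286 before adjustment). Igfbp6 over Igfbp2 and Igfbp7 over Igfbp5 did not overlap either, with the same p. Igfbp6 over Igfbp7 and Igfbp2 over Igfbp5 overlapped (exact permutation p = 0.0571 and 0.143, 0.0857 and 0.198 adjusted). Each of these ratios that did not overlap holds Igfbp5 or Igfbp2, already called lower, and adds no separate support. Igfbp6 and Igfbp7 per 1000 CPM of the markers overlapped between the groups, at 38.3 to 59.3 and 1.98 to 4.00 CPM in ID8-FSHR, against 33.9 to 43.3 and 3.20 to 4.16 CPM in ID8 (exact permutation p = 0.229, 0.274 adjusted, for both). Igfbp5 and Igfbp2 thus lay lower in ID8-FSHR also relative to the marker sum, though adjusted over 18 tests neither ratio passed 0.05. Of the 10 markers in that sum, 5 were themselves lower in ID8-FSHR than in ID8 (Msln, Krt19, Lrrn4, Gpm6a and Upk1b). Igfbp7 did not differ beyond its spread on that scale. The part of the marker cells in these differences was not tested.

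**Figure D4:**
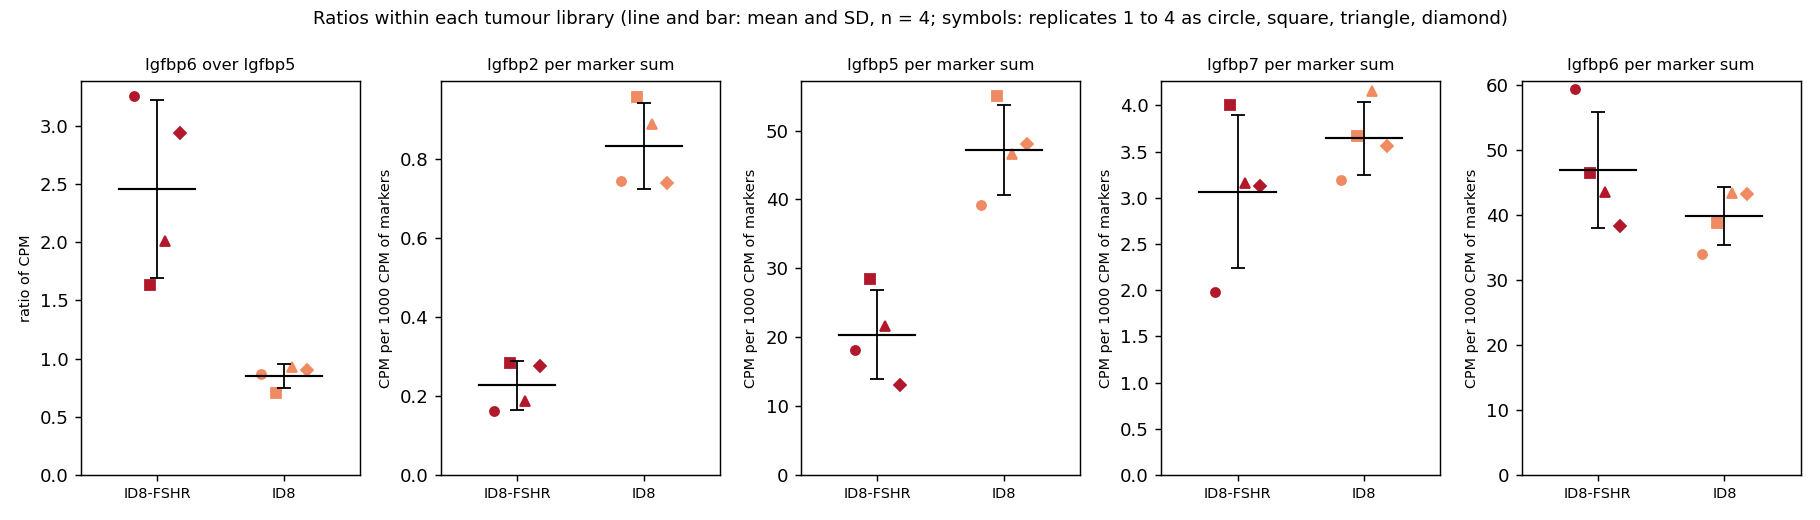
Ratios within each library of ID8-FSHR (left in each panel) and ID8: Igfbp6 over Igfbp5, and the level of Igfbp2, Igfbp5, Igfbp7 and Igfbp6 per 1000 CPM of 10 summed mesothelial and ovarian surface markers, with lines at the mean and bars of 1 SD (n = 4). The groups are apart in the first 3 panels, with Igfbp5 at 13.0 to 28.5 in ID8-FSHR and 39.2 to 55.1 in ID8, and overlap in the last 2.

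Other genes that set how much IGF is free were read from a list of 12. Of its 5 tested genes 3 rose in each tumour group against uninjected, and none fell, where 33.9% of all tested genes were higher and 30.6% lower in ID8-FSHR, and 32.7% higher and 31.4% lower in ID8. The counts of the other lists below stand against the same shares, and none is read as particular to its list. For counts of any list between the tumour groups, the share of all tested genes called was 11.6% (6.04% higher, 5.56% lower). Pappa, which encodes the protease PAPP-A that cuts IGFBP4 and IGFBP5, stood at 16.4 ± 6.26 CPM in ID8-FSHR and 22.6 ± 4.97 CPM in ID8, against 0 counts in all 4 uninjected libraries (SD, n = 4 each). That is at least 1095-fold higher in ID8-FSHR and at least 1512-fold higher in ID8, taking 3 counts over the uninjected group as its limit. Pappa passed the filter on low counts only through the tumour libraries, so its calls against uninjected mice are not read as support. Htra1, a secreted serine protease that cuts IGFBP5, stood at 46.8 ± 17.5 CPM in ID8-FSHR and 93.4 ± 8.45 CPM in ID8, against 0.837 ± 1.33 CPM in uninjected mice. Kazald1, a secreted protein with an IGFBP-like domain, stood at 15.8 ± 5.44 CPM in ID8-FSHR and 28.2 ± 2.95 CPM in ID8, against 1.42 ± 0.460 CPM. It was the only gene of this list called between the tumour groups (log2 fold change -0.84, SE 0.23, edgeR adjusted p = 0.0359). That call was absent without ID8 replicate 1, 3 or 4 and without ID8-FSHR replicate 2 or 4. Igfbp1 had 0 counts in every library, and Igfals, the acid-labile subunit that holds IGF complexes in blood, had 12 counts over ID8-FSHR, 2 over ID8 and 0 over uninjected libraries. The median over the tested genes was 3.47 in ID8-FSHR against uninjected, 4.31 in ID8 against uninjected and -0.46 between the tumour groups. Because Pappa is among these genes, the medians against uninjected mice are not read as support either.

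Of 11 tested genes for receptor relatives and docking proteins, 3 rose and 5 fell in each tumour group against uninjected, where 64.5% of all tested genes were called in ID8-FSHR and 64.1% in ID8. The insulin receptor gene Insr was not called, at 226 ± 67.1 CPM in ID8-FSHR and 183 ± 28.9 CPM in ID8, against 211 ± 24.8 CPM in uninjected mice. The 2 main insulin receptor substrates went opposite ways. Irs1 stood at 7.74 ± 1.97 CPM in ID8-FSHR and 18.7 ± 1.43 CPM in ID8, against 0.586 ± 0.203 CPM in uninjected mice. Irs2 stood at 20.5 ± 2.11 CPM in ID8-FSHR and 29.0 ± 2.7 CPM in ID8, against 40.9 ± 1.96 CPM in uninjected mice. Both were lower in ID8-FSHR than in ID8, by -1.28 for Irs1 (SE 0.21, edgeR adjusted p = 0.00214) and -0.50 for Irs2 (SE 0.09, edgeR adjusted p = 0.00337), and they were the 2 genes of the list called in that comparison. Without ID8-FSHR replicate 1 the count was 4. The docking protein gene Gab1 and the phosphatase gene Ptpn11 rose in both tumour groups (log2 fold changes of 0.57 and 0.30 in ID8-FSHR, 0.84 and 0.26 in ID8). The adaptor Grb2 fell in both (-0.59 in ID8-FSHR, -0.73 in ID8), as did Sos1 (-0.28 and -0.30), Shc1 (-0.15 and -0.21) and Ptpn1 (-0.37 and -0.67). The list's medians were -0.15, -0.21 and 0.03 in ID8-FSHR against uninjected, ID8 against uninjected and ID8-FSHR against ID8.

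Of the 17 genes of the PI3K and AKT arm, 4 rose and 10 fell in ID8-FSHR, and 5 rose and 10 fell in ID8, against uninjected mice, beside the same 64.5% and 64.1% called in the whole table. The leukocyte kinase subunit Pik3cg stood at 52.3 ± 10.1 CPM in ID8-FSHR and 41.2 ± 5.35 CPM in ID8, against 112 ± 5.95 CPM in uninjected mice. The broadly expressed Pik3cb stood at 39.3 ± 3.79 and 42.8 ± 2.04 CPM, against 26.2 ± 1.05 CPM. Pik3ca, also broadly expressed, fell instead, at 101 ± 1.67 and 101.6 ± 6.54 CPM, against 145 ± 7.57 CPM. Pik3r1 fell too, at 128 ± 9.86 and 130 ± 5.62 CPM, against 174 ± 18.5 CPM, so the fall was not limited to the leukocyte subunits. Foxo1, a transcription factor that AKT inhibits, stood at 59.2 ± 5.66 CPM in ID8-FSHR and 63.6 ± 3.22 CPM in ID8, against 126 ± 9.56 CPM. The other leukocyte subunit, Pik3cd, stood at 175 ± 43.6 CPM in ID8-FSHR and 129 ± 14.2 CPM in ID8, against 332 ± 31.1 CPM. Among the genes that rose were Rheb, at 68.8 ± 4.42 CPM in ID8-FSHR and 65.6 ± 3.59 CPM in ID8, against 52.4 ± 1.03 CPM, and Mtor, at 84.1 ± 7.74 CPM in ID8-FSHR and 98.1 ± 5.23 CPM in ID8, against 63.8 ± 2.56 CPM. Between the tumour groups 0 of the 17 were called by edgeR, 5 had an unadjusted p under 0.05, 1 was called by DESeq2, and 3 by edgeR without ID8-FSHR replicate 1. The medians were -0.27, -0.32 and 0.01 in ID8-FSHR against uninjected, ID8 against uninjected and ID8-FSHR against ID8. Markers of B cells, a known site of Pik3cd, fell in 10 of 10 in both tumour groups, with sums of 314 to 550.0 CPM in ID8-FSHR and 361 to 519.8 CPM in ID8, against 2870.4 to 3760.4 CPM in uninjected mice. Of all tested genes 30.6% were lower in ID8-FSHR and 31.4% in ID8. The part of B cells in these changes was not tested.

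Among genes that bind Igf2 mRNA or belong to imprinted growth genes, 5 of 8 tested rose and 1 fell in each tumour group against uninjected (all tested genes: 33.9% higher and 30.6% lower in ID8-FSHR, 32.7% and 31.4% in ID8). Of those that rose, Igf2bp1, Hmga2 and Peg3 passed the filter on low counts only through the tumour libraries. Their calls against uninjected mice, and the list's medians there, are not read as support. Igf2bp1, an mRNA-binding protein of fetal and tumour cells, stood at 5.78 ± 2.03 CPM in ID8-FSHR and 8.81 ± 1.31 CPM in ID8, against 2 counts over the uninjected libraries. Igf2bp2 stood at 5.89 ± 2.17 CPM in ID8-FSHR and 10.2 ± 1.30 CPM in ID8, against 0.687 ± 0.249 CPM. Hmga2, a chromatin protein upstream of Igf2bp2, stood at 1.65 ± 0.825 CPM in ID8-FSHR and 3.03 ± 0.502 CPM in ID8, against 0 counts, at least 110.5-fold and 202-fold higher. The growth inhibitor Cdkn1c fell, at 0.570 ± 0.311 CPM in ID8-FSHR and 1.56 ± 0.854 CPM in ID8, against 4.94 ± 0.126 CPM. The paternally expressed zinc finger gene Peg3 was the 1 gene called between the tumour groups, at 1.58 ± 0.230 CPM in ID8-FSHR against 6.24 ± 1.12 CPM in ID8 (log2 fold change -1.98, SE 0.26, edgeR adjusted p = 0.00046). The count was 2 without ID8 replicate 2 and without ID8-FSHR replicate 1 or 4, and 3 by DESeq2. The medians were 2.63, 3.33 and -0.70 in the same order of comparisons. H19, the neighbour of Igf2, had 0 counts in ID8-FSHR, 12 in ID8 and 4 in uninjected libraries.

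Of 12 tested mannose 6-phosphate sorting partners of Igf2r, 1 rose and 4 fell in ID8-FSHR, and 2 rose and 3 fell in ID8, against uninjected mice (all tested genes: 33.9% higher and 30.6% lower in ID8-FSHR, 32.7% and 31.4% in ID8). Without ID8-FSHR replicate 2, 8 of the 12 were called in ID8-FSHR. Gnptab, which encodes the enzyme that starts the mannose 6-phosphate tag, rose, at 158 ± 20.5 CPM in ID8-FSHR and 194 ± 5.62 CPM in ID8, against 80.4 ± 2.22 CPM. It was lower in ID8-FSHR than in ID8 (log2 fold change -0.30, SE 0.08, edgeR adjusted p = 0.0351), where Igf2r was higher, and this call was absent without ID8 replicate 1, 2, 3 or 4 and without uninjected replicate 3 or 4. The other mannose 6-phosphate receptor gene, M6pr, was not called in any comparison, at log2 fold changes of -0.03, -0.08 and 0.06. The sorting adaptor Gga3 fell in both (-0.64 in ID8-FSHR, -0.52 in ID8), as did Snx2 (-0.64 and -0.81). The medians were 0.04, -0.04 and 0.02.

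**Figure D5:**
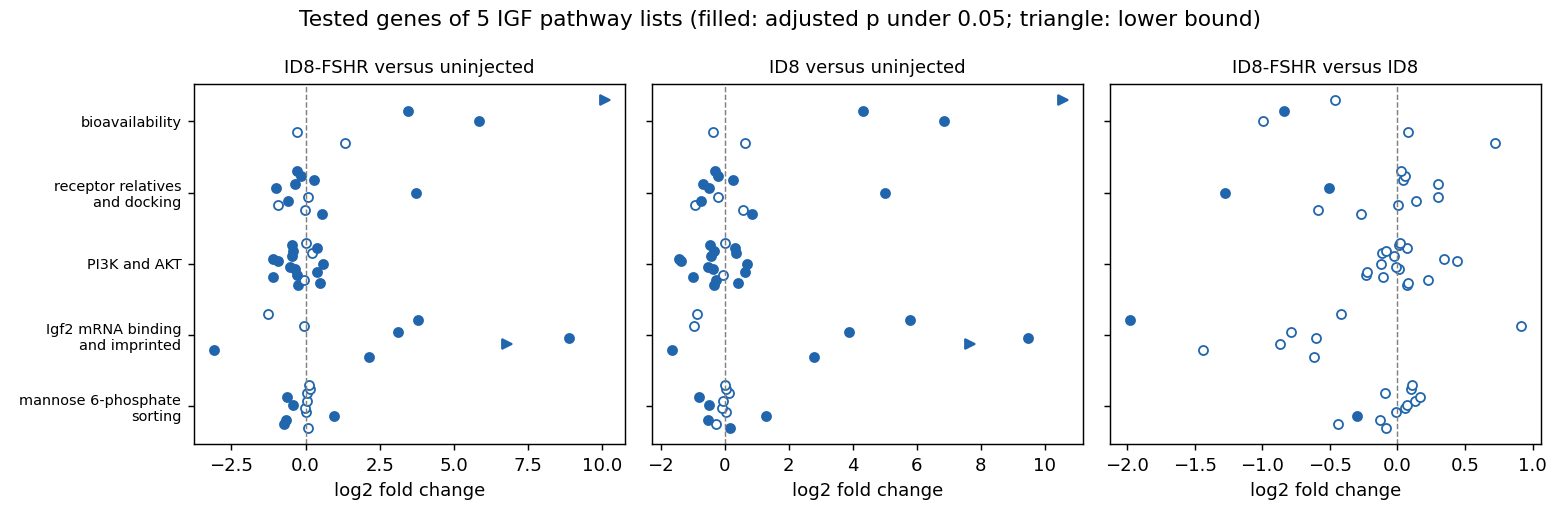
Log2 fold change (horizontal axis) of each tested gene of 5 pathway lists (rows) in ID8-FSHR against uninjected, ID8 against uninjected and ID8-FSHR against ID8; filled points have an adjusted p under 0.05, and triangles mark genes at 0 counts in uninjected mice, drawn at their lower bound. Pappa (at least 1095-fold and 1512-fold) lies farthest right in the comparisons with uninjected mice, and only Kazald1, Irs1, Irs2, Peg3 and Gnptab are filled between the tumour groups.

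For each of the 9 tested members the nearest profiles were sought among 12151 named genes, as the smallest root mean square distance over the 12 libraries between log2 levels centred on their means. Igf1 lay nearest to Zfp783 and Slc46a3, both at 0.337. Igf1r lay nearest to Dnajb4 (0.102) and Clip1 (0.108), and Igf2r to Fam110a (0.105) and Snx10 (0.126). The neighbouring binding protein genes had different nearest genes, Efemp1 (0.260) and Perp (0.504) for Igfbp5, and Gadd45b (0.221) and Mme (0.264) for Igfbp2. Igfbp6 lay nearest to Mpdz (0.227) and Dcn (0.249), Igfbp7 to Larp6 (0.203) and Met (0.205), and Igfbp4 to Fmo5 (0.144) and Lyrm9 (0.174). Profiles of Igf2 and Igfbp2 are flattened by the 0.5 CPM added before the logarithm, so their nearest genes, for Igf2 Adipor2 (0.0887) and Wdr81 (0.0945), say little about shape.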

How the data were processed

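The authors deposited raw read counts, 1 whole number per gene and library. Per the submitters' processing notes, bcl2fastq 2.20, STAR 2.7.9a and featureCounts of Subread 1.6.4 were used with GRCm38.p6. The sources used here do not give the strand setting, the treatment of multiply mapped reads or the annotation release. Per the labels, libraries were made from 100 ng of RNA after depletion of ribosomal RNA. Samples were grouped by their labels.

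Counts of all 12 libraries were fitted in R 4.3.3 with edgeR 4.0.16 (quasi-likelihood F test, robust, group means, TMM scaling, default filter, 16915 genes), with Benjamini-Hochberg adjustment over all genes tested and a threshold of 0.05. SE was taken from the log2 fold change and the F statistic. Coordinates and merged exon lengths came from GENCODE M21 on GRCm38, whose identifiers and versions match all 10 members, and promoters from RefSeq (GRCm38.p6). Libraries of a group differed by more than sampling noise (chi-square per degree of freedom of at least 14.9). Ratios were tested with exact permutation (scipy 1.17.1). Intervals and limits cover counting error only.

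The members and gene lists were chosen with earlier results of these data known. Named are the members, up to 3 called genes per list, direction and comparison with the smallest adjusted p, others of a list whose role bears on a member, and the 2 nearest profiles per member. Alternatives were DESeq2 1.42.0, its size factors within edgeR, testing every gene, a floor of 1 CPM in at least 4 libraries, only the groups compared, a replicate block, and leaving out each library.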

Additional observations from a re-analysis of the deposited data

Results flagged for a closer look

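Igf1r in ID8 replicate 2, at 125 CPM, lay apart from the other ID8 libraries at 139 to 142 CPM. Igfbp3 in ID8-FSHR replicate 4, at 0.0365 CPM (2 counts), and in uninjected replicate 2, at 0.0738 CPM (4 counts), lay apart from 0 counts in the other libraries of each group. These are 3 of 30 combinations of gene and group, where chance flags about 5% of groups of continuous, normally distributed values. For Igfbp3 that rate does not hold, since any counts in a single library beside 0 in the others are always flagged.

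The change against uninjected mice differed between ID8-FSHR and ID8 for 5 members, which is the same test as that of ID8-FSHR against ID8 (edgeR, adjusted p under 0.05). The differences in log2 fold change were -0.60 for Igf1r, 0.40 for Igf2r, -2.64 for Igfbp2, -2.01 for Igfbp5 and -1.05 for Igfbp7.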

How the results depend on the processing

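Of 482 recomputed log2 fold changes of members, 454 kept their direction and side of the threshold, 20 lost the threshold, 4 gained it and 4 changed sign. The sign changes were all of Igf2 in ID8-FSHR against ID8, which ran from -0.77 to 0.60 as each library was left out and rests on 17 counts. The members called in ID8-FSHR against ID8 numbered 3 with only the groups compared, where Igf1r and Igf2r were lost (edgeR adjusted p = 0.0703 and 0.0952), and 2 (without ID8 replicate 3 or 4) to 6 (without ID8-FSHR replicate 1) as each library was left out. All genes called there ran from 961 (without ID8 replicate 4) to 3136 (without ID8-FSHR replicate 1), beside 1962 with all libraries. The count was 1203 without ID8 replicate 1, 1035 without ID8 replicate 3 and 1189 without ID8-FSHR replicate 4. Of 270 recomputed list counts 35 moved by over 1.5 times, most in ID8-FSHR against ID8, where counts are 0 to 4. The cause was not tested.

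Replicate numbers did not pair the libraries: same-numbered deviations from the group mean correlated between -0.22 and 0.35 across genes, and in ID8-FSHR against ID8 2 of 4 libraries matched their own number best. With a replicate block 4 members were called there, Igf2r being lost (edgeR adjusted p = 0.0569), and 1776 genes in all. Depth limits Igf2 and Igfbp3, which rest on few counts.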
